A study of Mus musculus with 12 samples.

Results

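The MS4A (membrane-spanning 4A) genes code for small surface proteins of leukocytes, and 10 of them were followed here in dendritic cells (DCs) sorted from mouse gut: Ms4a1, Ms4a4a, Ms4a4b, Ms4a4c, Ms4a4d, Ms4a6b, Ms4a6c, Ms4a6d, Ms4a7 and Ms4a8a. They were chosen by symbol, matched to the Ensembl mouse gene IDs of the count files, and are 10 of the 19 genes with an Ms4a symbol among 53801 genes in those files. All 10 passed the filter on low counts, although Ms4a4a passed it through libraries of the CD103-CD11b+ subset alone, the subset in which it was high. The list was chosen with earlier results of the same libraries known, among them the higher Ms4a1 in CD103-CD11b+ DCs of mice lacking Cbfb. Values of the listed genes in that comparison are therefore given as a description, and the tests of the other comparisons are not independent support for the choice.

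Each of 4 groups held 3 samples, which per a figure legend of the study were sorted from 3 different mice. Control CD103+CD11b- and control CD103-CD11b+ DCs came from mice labelled wild type, and cKO CD103+CD11b- and cKO CD103-CD11b+ DCs from mice with Cre under the CD11c promoter and the floxed Cbfb allele on both chromosomes (Cbfb F/F: CD11c-Cre). Cbfb codes for the partner subunit that Runx transcription factors need for stable DNA binding. All mice were labelled as of mixed background, and the labels gave neither their ages nor whether the controls carried the transgene. Gut DCs were gated by the study as CD45+ leukocytes that lacked CD64 and carried CD11c and MHC-II. The CD11c promoter that drives Cre is also active in macrophages and in some other leukocytes. The labels do not say whether samples with the same replicate number shared a mouse or a batch. In sorted pools of this kind, fewer cells of a type and less RNA per cell cannot be told apart.

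MS4A proteins cross the plasma membrane several times, with both ends inside the cell, and most are thought to sit beside receptors and to tune their signals. CD20, the product of Ms4a1, is the B cell antigen to which rituximab binds, and the product of Ms4a2 is the beta chain of the high-affinity IgE receptor of mast cells and basophils. Ms4a4a, Ms4a6d, Ms4a7 and Ms4a8a are known from monocytes and macrophages, Ms4a4b from T cells, and the Ms4a6 genes from myeloid cells in general.

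The listed genes lie in 1 cluster on chromosome 19 (chr19:11067471-11604849, GRCm38), a span of 537.4 kb in which 14 of 17 protein-coding genes have an Ms4a symbol. Of the listed genes 6 lie on the plus strand and 4 on the minus strand. The upstream sequences are shown for Ms4a4b and Ms4a4c, because this pair was the most alike in its coding sequence as well as in the bases before its starts, and yet had a low correlation of levels. The RefSeq promoter table (GRCm38.p6) held 8 of the 10 genes, with 2 starts for Ms4a7. Among the 36 pairs of 250-base upstream sequences, Ms4a4b and Ms4a4c had the highest identity (185 identical bases, 68.8% of alignment columns), and the next pair by this share had 50%. Both sequences lie on the plus strand and are printed 5′ to 3′ up to 5 bases before the start (Ms4a4b, chr19:11443308-11443552 and Ms4a4c, chr19:11407411-11407655), and capitals mark the bases identical in their alignment.
Ms4a4b: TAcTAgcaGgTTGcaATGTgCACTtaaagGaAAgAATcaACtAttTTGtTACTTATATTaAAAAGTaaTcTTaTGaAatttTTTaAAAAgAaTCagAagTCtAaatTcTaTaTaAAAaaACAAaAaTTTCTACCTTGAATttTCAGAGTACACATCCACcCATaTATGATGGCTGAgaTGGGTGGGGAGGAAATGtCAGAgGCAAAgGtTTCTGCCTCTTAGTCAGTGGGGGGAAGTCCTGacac
Ms4a4c: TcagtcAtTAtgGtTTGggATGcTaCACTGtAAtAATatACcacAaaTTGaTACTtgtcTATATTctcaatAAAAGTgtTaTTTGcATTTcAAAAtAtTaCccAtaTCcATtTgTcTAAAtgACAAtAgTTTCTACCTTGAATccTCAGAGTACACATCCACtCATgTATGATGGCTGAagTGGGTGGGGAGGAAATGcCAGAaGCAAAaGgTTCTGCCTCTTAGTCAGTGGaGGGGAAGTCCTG
The identical bases were gathered near the start: 107 of the last 120 bases of Ms4a4c were identical to Ms4a4b, against 74 of the 125 bases before them. The core letters bound by Runx factors (TGTGGT or TGCGGT, on either strand) occurred within 250 bases before the start in 18.6% of 32851 mouse promoters and in 1 of the 9 promoters of listed genes, that of Ms4a4c at 211 bases before the start. The letters GAGGAAG, a PU.1-type core, occurred in 10.6% of all promoters and in 0 of these 9. Such matches describe the letters in these windows only.

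In coding sequence the listed genes fell into branches. With gaps counted as differences, the coding sequences of Ms4a4b and Ms4a4c were identical at 91.8% of alignment columns, those of Ms4a4c and Ms4a4d at 85.8%, and those of Ms4a4b and Ms4a4d at 83.6%, whereas Ms4a4a and Ms4a4c were identical at 59.9%. In the Ms4a6 branch, Ms4a6b and Ms4a6d shared 80.2%, Ms4a6b and Ms4a6c 74.6%, and Ms4a6c and Ms4a6d 67.3%. Ms4a1, Ms4a7 and Ms4a8a stood apart, and Ms4a1 shared between 44.8% (with Ms4a6c) and 49.0% (with Ms4a8a) with the others. Likeness in sequence and in level did not run in the same order. Across the 12 libraries, Ms4a6b and Ms4a6c had the highest correlation of levels (r = 0.96), followed by Ms4a4c and Ms4a6b (r = 0.96), 2 genes with 52.6% identity. Ms4a4b and Ms4a4c, the pair most alike in sequence, had r = 0.57. Ms4a1 had r between -0.11 and 0.44 with the other 9 genes, against a median of 0.72 over the 36 pairs without it. These correlations include the difference between subsets and share the same libraries.

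Counting could mix genes of the family to a small extent, with 1 exception. Of the 50-base windows in the transcripts of each gene, at most 8.19% (Ms4a4c, mostly shared with Ms4a4b) also occurred in transcripts of another gene. The exception was Ms4a6c, for which 51.4% of windows were shared. Its exons overlap those of BE692007, a transcript on the opposite strand, over 1088 of 2050 exon bases (53.1%), and reads were counted without strand. Without strand, reads on these bases cannot be told apart between the 2 genes, and BE692007 is therefore given beside Ms4a6c.

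The libraries held between 2161929 and 5863484 counts on genes, so that 3 counts were worth 0.485 to 1.53 CPM (counts per 1000000 of the scaled library size). Markers of conventional DCs followed the labels. All 7 genes listed for cDC1 were called lower in CD103-CD11b+ than in CD103+CD11b- DCs in both genotypes. Of the 6 genes listed for cDC2, 3 (control) and 5 (cKO) were called higher, beside 11.8% and 9.32% of all genes tested. The share of all genes called lower is not given. Each list holds a gene of the sort, Itgae (CD103) for cDC1 and Itgam (CD11b) for cDC2, whose direction the sort itself favours. Cbfb counted over the whole gene did not differ between genotypes (the groups overlapped in both subsets), so the genotype labels were not checked by it. Genes of other cells were present. The summed level of 8 T cell genes ranged from 6.44 to 145 CPM over the 12 libraries, that of 6 granulocyte genes from 2.97 to 136 CPM, and that of 6 epithelial genes from 18 to 276 CPM. Single genes made up most of the highest granulocyte and epithelial sums: Csf3r, a receptor gene of myeloid cells, was 134 CPM in the library with the highest granulocyte sum, and Cdh1, which codes for E-cadherin, was 224 CPM in that with the highest epithelial sum. Of 6 mast cell and basophil genes, Fcer1a was at 0 in every library, Cpa3, Mcpt1 and Mcpt2 did not exceed 3.52 CPM, and Kit, which is also expressed by other cells, made up most of the sum of 294 to 419 CPM. Gata2, a transcription factor of these and of other cells, was 1.14 to 9.05 CPM in control CD103+CD11b- and 24.5, 73.0 and 82.9 CPM in control CD103-CD11b+ DCs, and was called higher there (log2 difference 3.75, SE 0.91, adjusted p = 0.0183). In cKO mice it was 1.33 to 4.64 CPM and 13.5, 26.4 and 1.53 CPM, with overlap (adjusted p = 0.112).

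Per length of exon, Ms4a6c and Ms4a6b were the highest of the 10 genes in all 4 groups. In control CD103+CD11b- DCs, Ms4a6c had 18 ± 3.75 CPM per kb (SD, n = 3) and Ms4a6b 7.65 ± 2.04 CPM per kb, without overlap between them or with the third gene, Ms4a4c, at 1.92 CPM per kb. From the third place on, neighbours in the order of that group overlapped. In control CD103-CD11b+ DCs the order began with Ms4a6c (28.7), Ms4a6b (23.0), Ms4a6d (15.6), Ms4a4c (12.7) and Ms4a4a (8.45 CPM per kb), and each overlapped the next. If reads on the exon bases shared with BE692007 were set aside as ambiguous, as the counter does by default, the level of Ms4a6c per length is a low estimate. Ms4a1 was the fifth in control CD103+CD11b-, the third in cKO CD103+CD11b-, the ninth in control CD103-CD11b+ and the fifth in cKO CD103-CD11b+ DCs.

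**Figure D1:**
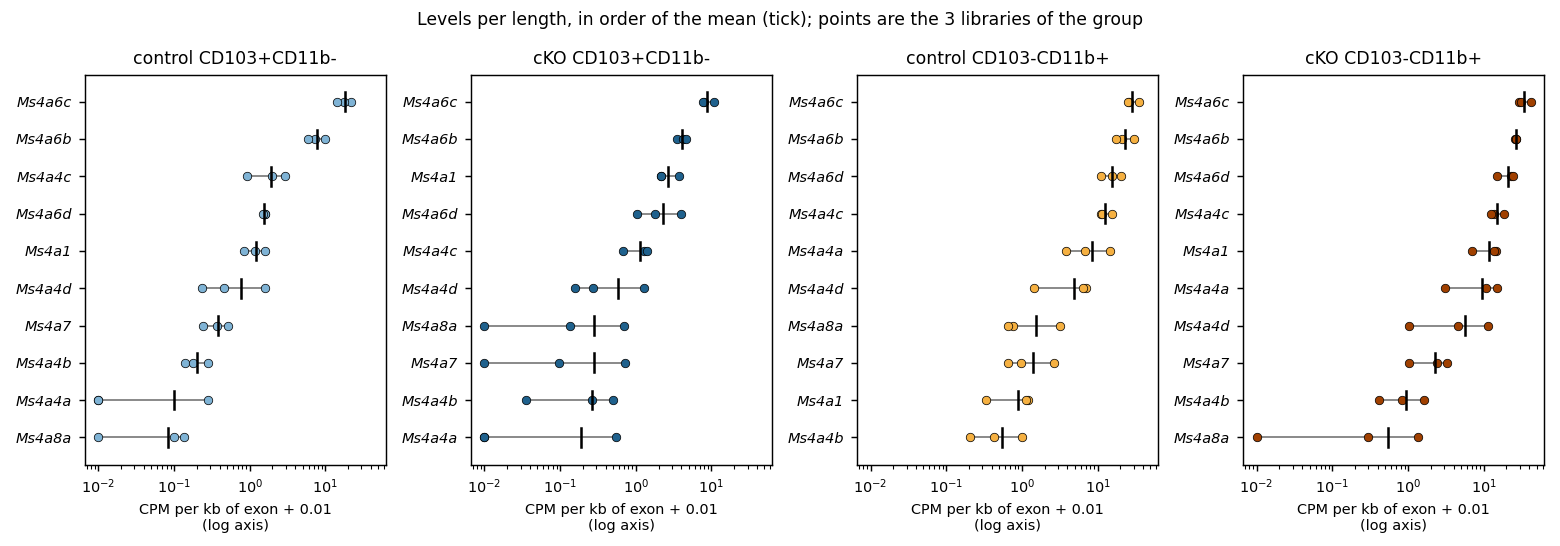
Levels per length (CPM per kb of exon plus 0.01, log axis) of the 10 genes in each group, ordered by the mean (tick), with the 3 libraries as points. Ms4a6c and Ms4a6b lead in every panel, and Ms4a1 moves from the ninth place in control CD103-CD11b+ to the fifth in cKO CD103-CD11b+ DCs.

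The first question was how the family differs between the 2 DC subsets. In control mice 5 of the 10 genes were higher in CD103-CD11b+ than in CD103+CD11b- DCs by edgeR's quasi-likelihood test at an adjusted p under 0.05 (Ms4a4a, Ms4a4c, Ms4a6b, Ms4a6c and Ms4a6d), none was lower, and 11.8% of the 20580 genes tested were higher. In cKO mice these 5 genes and Ms4a1 were higher, and 9.32% of all genes tested were higher. Nothing is read from the calls of Ms4a4a, which entered the test through the subset in which it was high, or of Ms4a1 in cKO mice, whose high CD103-CD11b+ values were known when it was chosen. Without them 4 of 9 genes were called higher in control and 4 of 8 in cKO mice, with median log2 differences of 1.88 and 2.87, beside 0.07 and 0.11 over all genes tested. With the replicate number within a genotype as a block, Ms4a4d (adjusted p = 0.00622) and Ms4a7 (adjusted p = 0.0174) were also called higher in cKO mice. The labels do not give this pairing. The block also paired control samples, whose second replicates deviated with r = -0.0846 between the subsets. Both genes were called in cKO mice as well with DESeq2, with edgeR's likelihood ratio test and with 2 of the 3 other filters on low counts. As the share of all genes called in these fits is not given, nothing is read from the added calls.

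Ms4a6d, whose product is reported to act on myeloid cells together with Vsig4, stood at 2.74, 2.75 and 2.59 CPM in control CD103+CD11b- and at 34.8, 27.0 and 19.2 CPM in control CD103-CD11b+ DCs. In cKO mice it was 1.78, 6.83 and 3.13 CPM in CD103+CD11b- and 26.0, 39.5 and 42.8 CPM in CD103-CD11b+ DCs. The subsets were apart in both genotypes, with no overlap. The log2 difference was 3.32 (SE 0.44, adjusted p = 0.000934) in control and 3.18 (SE 0.43, adjusted p = 0.00053) in cKO mice, where it was 3.91 without cKO CD103+CD11b- replicate 2.

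Ms4a6b, the gene with the most counts of the family, was 44.1, 32.7 and 26.0 CPM in control CD103+CD11b- and 138, 93.0 and 79.1 CPM in control CD103-CD11b+ DCs. In cKO mice it was 15.5, 18.5 and 20.3 CPM in CD103+CD11b- and 116, 122 and 121 CPM in CD103-CD11b+ DCs. The log2 difference between subsets was 1.60 (SE 0.23, adjusted p = 0.00153) in control and 2.73 (SE 0.24, adjusted p = 3.41e-05) in cKO mice, again without overlap.

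Its relative Ms4a6c was less different between the subsets in control mice. It was 44.8, 36.6 and 29.4 CPM in CD103+CD11b- and 71.7, 53.0 and 52.1 CPM in CD103-CD11b+ DCs, a log2 difference of 0.68 (SE 0.21, adjusted p = 0.0464). That call was lost in 10 of the 12 fits without 1 library, those without any 1 of the 6 control libraries included, with adjusted p up to 0.182, and also with 2 other filters on low counts and in the fit of the 6 control samples alone (adjusted p = 0.0769). In cKO mice Ms4a6c was 16.2, 15.9 and 21.9 CPM in CD103+CD11b- and 60.8, 64.2 and 85.7 CPM in CD103-CD11b+ DCs, a log2 difference of 1.97 (SE 0.22, adjusted p = 0.000179). The overlapping BE692007 was also higher in CD103-CD11b+ DCs in both genotypes, by 1.43 (SE 0.36, adjusted p = 0.0211) in control and 2.49 (SE 0.38, adjusted p = 0.00118) in cKO mice.

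In the Ms4a4 branch, Ms4a4c was 3.42, 5.03 and 1.62 CPM in control CD103+CD11b- and 27.0, 19.7 and 19.8 CPM in control CD103-CD11b+ DCs. The log2 difference was 2.74 (SE 0.39, adjusted p = 0.00151). In cKO mice it was 2.22, 2.44 and 1.17 CPM against 23.8, 21.7 and 32.1 CPM, a log2 difference of 3.66 (SE 0.42, adjusted p = 0.000185). Every CD103-CD11b+ library was above every CD103+CD11b- library.

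Ms4a4a, a macrophage gene whose product is reported to associate with dectin-1 (Clec7a), was near the counting limit in CD103+CD11b- DCs. The 3 control libraries of that subset held 1 count in all, and the 3 cKO libraries 2 counts. In CD103-CD11b+ DCs it was 5.68, 12.3 and 3.20 CPM in control (77 counts) and 8.98, 12.6 and 2.55 CPM in cKO mice (98 counts). The ratio of the depth-scaled sums was 89.9 (95% exact interval 15.7 to 3600) in control and 51.5 (13.9 to 431) in cKO mice, intervals that cover counting error only. As Ms4a4a passed the filter through this subset alone, nothing is read from its test.

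Ms4a4b, known from T cells, overlapped between the subsets and did not pass the test. It was 2.39, 1.14 and 1.46 CPM in control CD103+CD11b-, 0.222, 2.2 and 4.30 CPM in cKO CD103+CD11b-, 3.72, 8.66 and 1.75 CPM in control CD103-CD11b+ and 14.1, 7.14 and 3.57 CPM in cKO CD103-CD11b+ DCs. The log2 difference between subsets was 1.5 (SE 0.85, adjusted p = 0.24) in control and 1.98 (SE 0.84, adjusted p = 0.132) in cKO mice. With 1 library left out, the difference ran from 0.73 to 1.845 in control and from 1.30 to 2.80 in cKO mice. The summed level of the 8 T cell genes in the same CD103-CD11b+ libraries was 6.46, 135 and 44.5 CPM in control and 145, 51.2 and 16.3 CPM in cKO mice. In either genotype the CD103-CD11b+ library with the highest T cell sum was also the one with the highest Ms4a4b. The remaining control libraries of that subset took the opposite order. In control CD103+CD11b- DCs the sum was 22.2, 20.8 and 63 CPM, highest in replicate 3, while Ms4a4b was highest in replicate 1. In cKO CD103+CD11b- DCs both took the same order. The part of T cells in the level of Ms4a4b was not tested.

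Ms4a4d was 2.15, 10.7 and 9.60 CPM in control and 6.96, 17.1 and 1.53 CPM in cKO CD103-CD11b+ DCs, beside 0.222 to 2.43 CPM in CD103+CD11b- DCs. The log2 difference was 2.53 (SE 0.98, adjusted p = 0.0952) in control and 3.27 (SE 1.05, adjusted p = 0.0551) in cKO mice, and 1 or more libraries overlapped in each. With 1 library left out, the difference in control mice ran from 2.15 to 3.64 for Ms4a4d. Its nearest gene in pattern was Col6a2, a collagen VI gene of connective tissue cells (r = 0.98), which was 30.5, 191 and 104 CPM in control and 84.4, 286 and 15.3 CPM in cKO CD103-CD11b+ DCs. In either genotype the libraries of CD103-CD11b+ DCs took the same order for both genes, with the second replicate the highest. As Col6a2 was picked by its correlation with Ms4a4d over these same libraries, nothing is read from this shared order. The part of connective tissue cells in the level of Ms4a4d was not tested.

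Ms4a7 and Ms4a8a, the macrophage genes outside the 2 branches, were low. Ms4a7 was 1.03, 2.29 and 1.62 CPM in control CD103+CD11b- and 4.31, 11.7 and 2.91 CPM in control CD103-CD11b+ DCs, which did not overlap, with a log2 difference of 1.88 (SE 0.92, adjusted p = 0.175). With 1 library left out, this difference ran from 1.07 to 2.17. In cKO mice Ms4a7 was 0, 3.17 and 0.391 CPM against 10.8, 14.8 and 4.59 CPM, a log2 difference of 3.02 (SE 0.96, adjusted p = 0.0541). Without cKO CD103+CD11b- replicate 2, the library of that group with the most Ms4a7, it was 5.82 (adjusted p = 0.00925). Ms4a8a was 1.37, 5.66 and 1.16 CPM in control CD103-CD11b+ DCs and 0 to 0.229 CPM in control CD103+CD11b- DCs. The sums were 28 and 2 counts, with 17 of the 28 in control CD103-CD11b+ replicate 2. Their depth-scaled ratio was 16.3 (4.12 to 142), an interval of counting error only that leaves out the spread between libraries. The test, which holds that spread, gave an adjusted p of 0.065. In cKO mice Ms4a8a was 0, 2.38 and 0.51 CPM in CD103-CD11b+ and 0.222, 1.22 and 0 CPM in CD103+CD11b- DCs, and the groups overlapped.

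**Figure D2:**
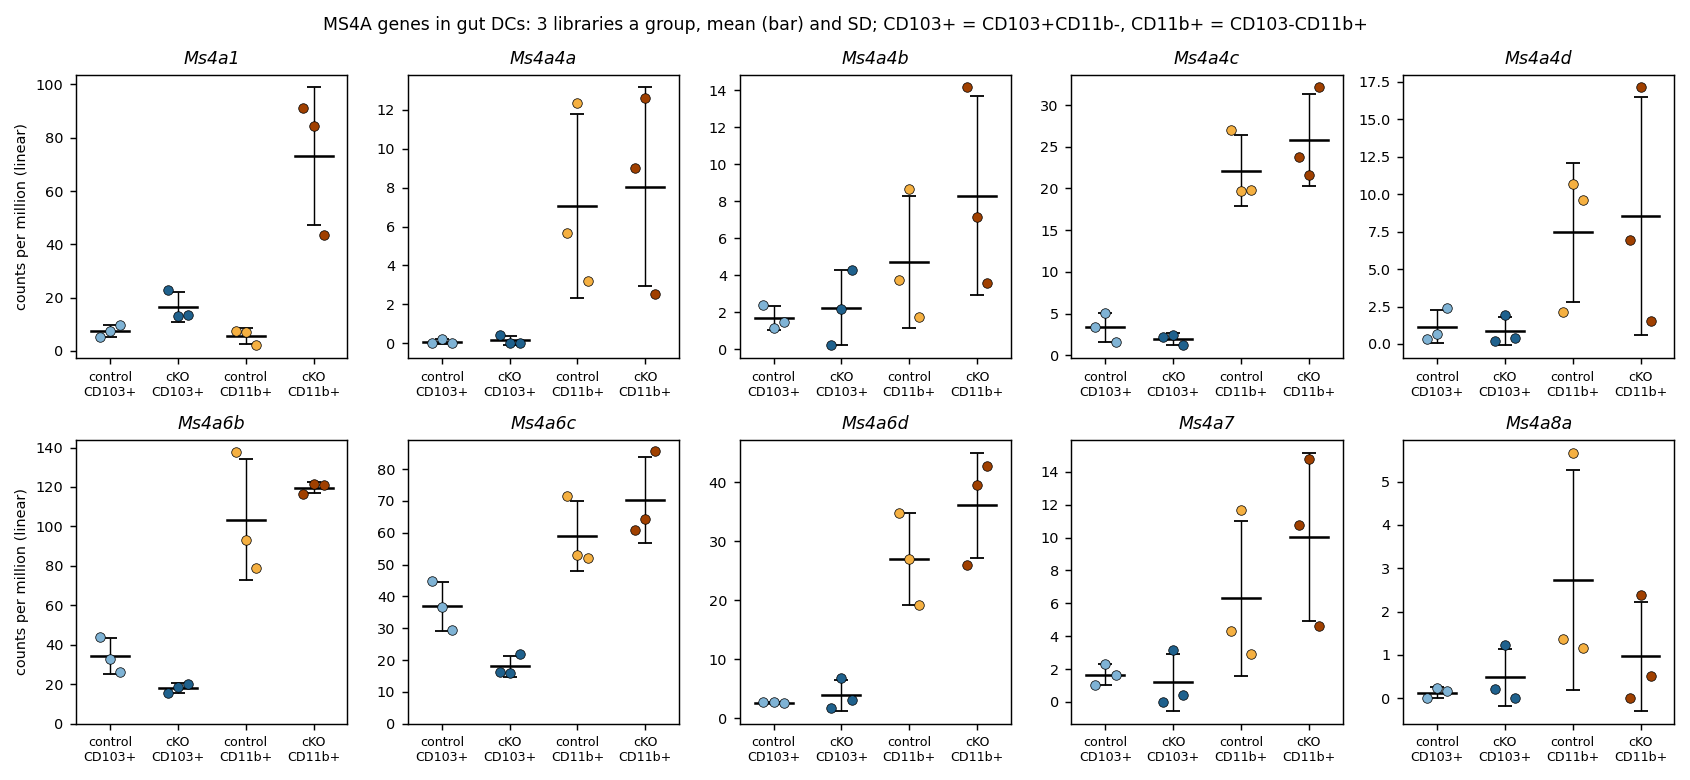
CPM (linear axis) of the 10 MS4A genes in the 3 libraries of each group (points), with mean and SD; CD103+ stands for CD103+CD11b- and CD11b+ for CD103-CD11b+. Ms4a4a, Ms4a4c, Ms4a6b, Ms4a6c and Ms4a6d are higher in CD103-CD11b+ DCs of both genotypes, and Ms4a1 is high in cKO CD103-CD11b+ DCs, at 43.3 to 91.1 CPM.

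Macrophage genes moved with this subset difference. The summed level of 12 macrophage genes was 58.3 to 105 CPM in control CD103+CD11b-, 22.2 to 99.1 in cKO CD103+CD11b-, 415 to 860 in control CD103-CD11b+ and 535 to 875 CPM in cKO CD103-CD11b+ DCs. Fcgr1 passed the filter on low counts through CD103-CD11b+ libraries alone. Of the other 11 genes, 8 were higher in CD103-CD11b+ DCs in control and 7 in cKO mice, none was lower, and their median log2 differences were 3.32 and 3.62. Over all genes tested 11.8% and 9.32% were higher, with medians of 0.07 and 0.11. Fcgr1, which codes for CD64, the marker used to leave macrophages out of the gate, was 4.95 to 11.7 CPM in control CD103-CD11b+ and 0 to 0.485 CPM in control CD103+CD11b- DCs. By library, the macrophage sum in CD103-CD11b+ DCs was 555, 860 and 415 CPM in control and 596, 875 and 535 CPM in cKO mice. In either genotype Ms4a4a and Ms4a7 took the same order over the libraries as this sum, the second replicate the highest and the third the lowest. Ms4a4c, Ms4a6b, Ms4a6c and Ms4a6d took that order in neither genotype, with Ms4a6d highest in the first control replicate and in the third cKO replicate. Of 6 monocyte genes, 2 were higher and 1 lower in CD103-CD11b+ DCs of control mice, and 2 were higher in cKO mice. The part of these cells in the levels of the MS4A genes was not tested.

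The second question was the effect of Cbfb loss within CD103+CD11b- DCs. None of the 10 genes passed edgeR's quasi-likelihood test at an adjusted p under 0.05, where 1.02% of all genes tested were called. At an unadjusted p under 0.05 there were 3 of the 10, beside 10.5% of all genes. DESeq2 and edgeR's likelihood ratio test each called 2 genes, Ms4a6b and Ms4a6c, as lower, and called 3.26% and 2.91% of all genes. Between cKO and control, 3 genes did not overlap (Ms4a1, Ms4a6b and Ms4a6c), beside 18.1% of all genes tested. The median log2 difference of the 10 genes was -0.03, beside -0.02 over all genes.

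Ms4a6c stood at 29.4 to 44.8 CPM in control and at 15.9 to 21.9 CPM in cKO CD103+CD11b- DCs, a log2 difference of -1.04 (SE 0.22, adjusted p = 0.054). The call turned on the processing: the adjusted p was 0.0331 with 5 or more counts required in every sample, 0.0447 without control CD103+CD11b- replicate 3, 0.0483 without cKO CD103-CD11b+ replicate 3, and between 0.00586 and 0.231 over all alternatives. Ms4a6b was 26.0 to 44.1 CPM in control and 15.5 to 20.3 CPM in cKO DCs, a log2 difference of -0.91 (SE 0.24, adjusted p = 0.117). BE692007 was 16.8, 13.5 and 8.41 CPM in control and 5.99, 6.83 and 7.04 CPM in cKO DCs, a log2 difference of -0.95 (SE 0.38, adjusted p = 0.374). Ms4a6d, the third gene of the branch, overlapped and had a log2 difference of 0.55 (SE 0.45, adjusted p = 0.803).

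Markers of other myeloid cells moved in the same comparison. The summed level of the 6 cDC2 genes was 366 to 626 CPM in control and 84.1 to 137 CPM in cKO CD103+CD11b- DCs, and 3 of the 6 fell (Sirpa, Irf4 and Cd209a), beside the 1.02% of all genes called. Itgam of the same list, which codes for CD11b, was 3.66 to 4.79 CPM in control and 5.99 to 11 CPM in cKO DCs, without overlap (log2 difference 0.92, SE 0.30, adjusted p = 0.239). The sum of 6 monocyte genes was 368 to 652 CPM in control and 217 to 312 CPM in cKO DCs, and that of 6 plasmacytoid DC genes 902 to 2085 and 394 to 761 CPM. In either list 0 genes were called by edgeR's quasi-likelihood test. At an unadjusted p under 0.05 there were 2 and 6, beside 10.5% of all genes. The sum of 7 cDC1 genes was 2861 to 3950 CPM in control and 3984 to 4737 CPM in cKO DCs. The part of these cells in the lower Ms4a6b and Ms4a6c was not tested.

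Of the other genes in CD103+CD11b- DCs, Ms4a1 was 5.13, 7.32 and 9.70 CPM in control and 22.9, 13.2 and 13.3 CPM in cKO mice. The groups were apart, and the log2 difference was 1.14 (SE 0.44, adjusted p = 0.358). The summed level of 11 B cell genes, Ms4a1 not among them, was 98.3 to 157 CPM in control and 53.6 to 119.8 CPM in cKO DCs of this subset. Of it, Fcrla alone, an Fc receptor-like gene, was 34.9 to 118 CPM in control and 33.6 to 81.3 CPM in cKO DCs. The part of B cells in the level of Ms4a1 was not tested. Ms4a4c had a log2 difference of -0.71 (SE 0.43, adjusted p = 0.667), and Ms4a4a, Ms4a4b, Ms4a4d, Ms4a7 and Ms4a8a, all under 5 CPM in each library of the subset, overlapped between genotypes.

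**Figure D3:**
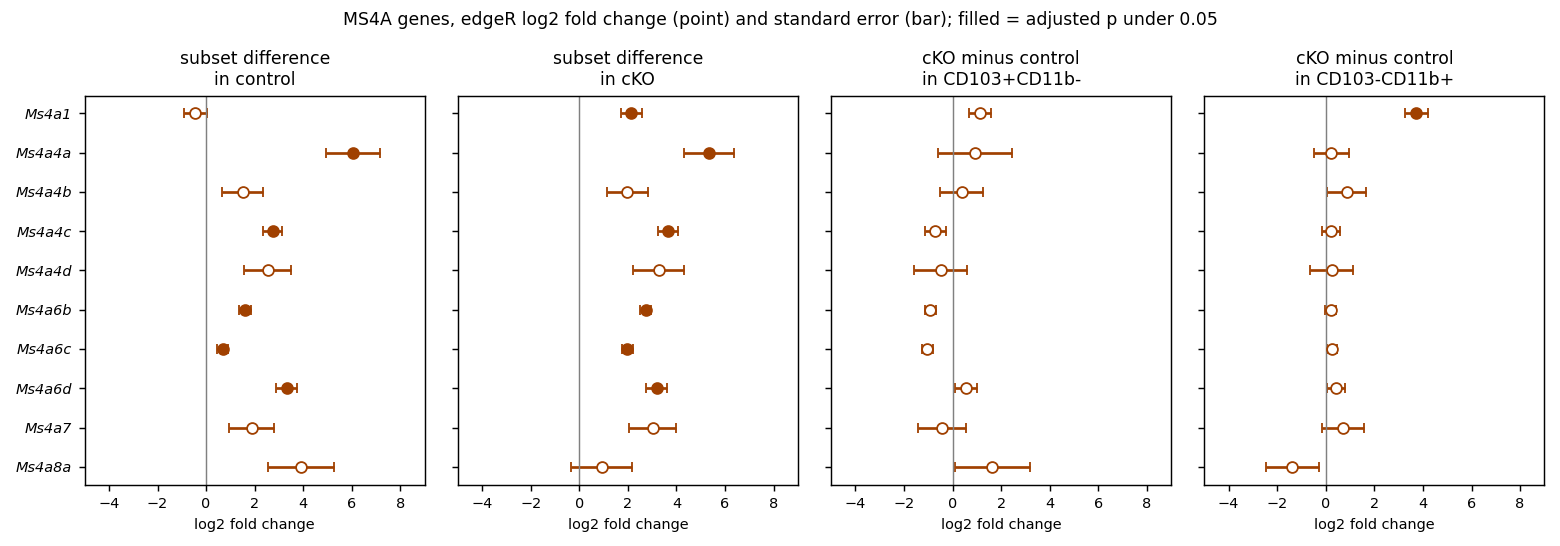
Log2 fold change (edgeR, points) and standard error (bars) of the 10 genes in 4 comparisons; filled points had an adjusted p under 0.05. In the right-hand panel, the comparison known when the genes were chosen, Ms4a1 lies at 3.72 and the other 9 between -1.37 and 0.85; Ms4a6b (-0.91) and Ms4a6c (-1.04) lie below 0 in CD103+CD11b- DCs.

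In CD103-CD11b+ DCs the gene that stood apart between genotypes was Ms4a1. It was 7.44, 7.0 and 2.04 CPM in control mice (38, 21 and 7 counts) and 91.1, 84.5 and 43.3 CPM in cKO mice (406, 355 and 85 counts). The lowest cKO library was above every control library of the subset, and also above every library of CD103+CD11b- DCs. The log2 difference was 3.72 (SE 0.47), or 13.2-fold, and lay between 3.35 and 4.06 when each library was left out in turn. Ms4a1 was the 1 listed gene called in this comparison, where 1.11% of all genes tested were called higher. As the gene was known to rise here when it was chosen, nothing is read from that count, and the fit of the 6 samples of the comparison alone did not call it.

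B cell genes were not uniform in these libraries. By library, the sum of the 11 B cell genes in CD103-CD11b+ DCs was 144, 339 and 188 CPM in control and 599, 344 and 161 CPM in cKO mice. Of the 11, 1 (Cd22) was called higher in cKO mice, 4 had an unadjusted p under 0.05 (17.4% of all genes did), and the median log2 difference was 1.52, beside -0.06 over all genes. Cd22, an inhibitory co-receptor, was 26.2, 34.3 and 22.4 CPM in control and 136, 116 and 79.0 CPM in cKO mice, and Fcer2a, the low-affinity IgE receptor CD23, was 1.96, 10.3 and 3.49 CPM in control and 52.1, 64.7 and 26.0 CPM in cKO mice. Both were apart between the genotypes, as Ms4a1 was. Ebf1, a transcription factor of B cells that is also known from stromal cells, ran the other way and made up much of the control sums. It was 53.6, 205 and 144 CPM in control and 86.9, 68.8 and 8.16 CPM in cKO mice, with overlap between the genotypes.

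Pax5 and Cd79a overlapped between the genotypes. Pax5, the transcription factor that holds B cell identity, was 6.46, 19.3 and 0 CPM in control and 60.8, 14.0 and 0 CPM in cKO CD103-CD11b+ DCs. Cd79a, the signalling chain of the B cell receptor, was 10.8, 11 and 2.91 CPM in control and 47.1, 5.47 and 3.57 CPM in cKO mice. For both genes cKO replicate 1 was above all control libraries, while cKO replicates 2 and 3 lay within the control range. In cKO replicate 3, Ms4a1 was 43.3 CPM with Pax5 at 0, where 3 counts would be 1.53 CPM. The part of B cells in the higher Ms4a1 was not tested.

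**Figure D4:**
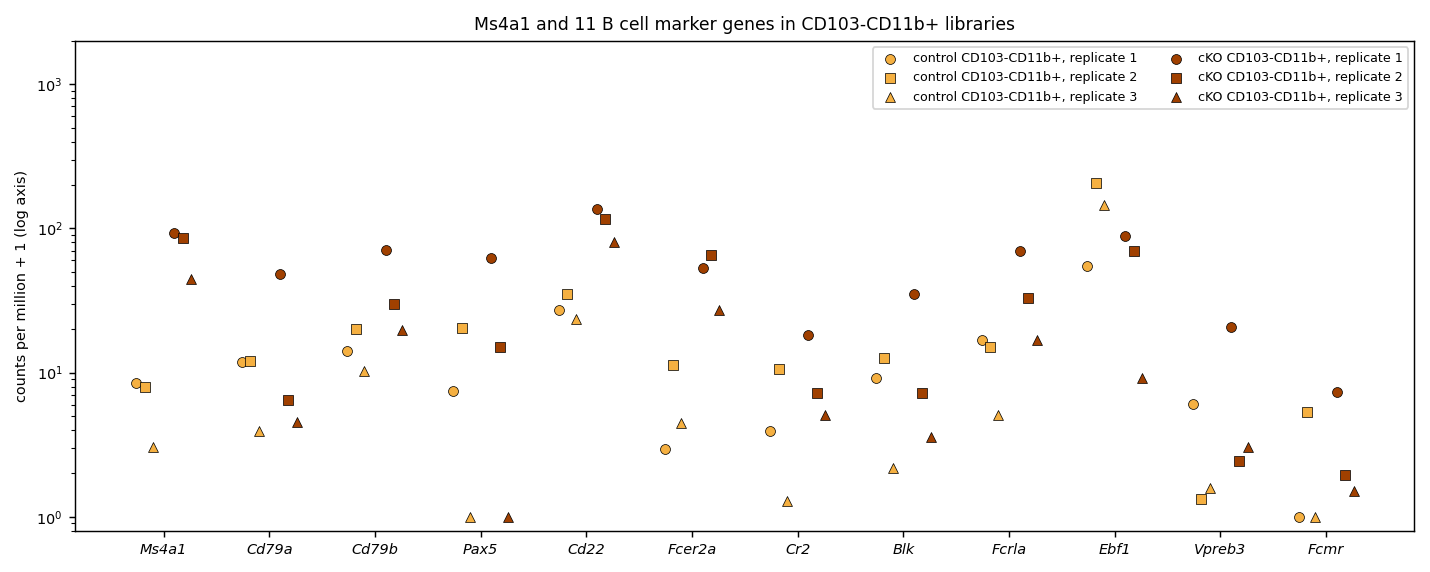
Ms4a1 and 11 B cell marker genes in the 6 CD103-CD11b+ libraries (CPM plus 1, log axis), with a marker shape for each replicate number. The 3 cKO libraries are apart from the control libraries for Ms4a1, Cd22 and Fcer2a, whereas Pax5 is high in cKO replicate 1 and at 0 in replicate 3 of both genotypes.

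Fcrl1, an Fc receptor-like gene known from B cells, was the gene whose pattern over the 12 libraries was most like that of Ms4a1 (r = 0.95 among 17180 genes compared), followed by Chd3 (r = 0.94) and Dyrk4 (r = 0.94). Fcrl1 was 8.61, 17.0 and 9.02 CPM in control and 70.5, 59.0 and 37.2 CPM in cKO CD103-CD11b+ DCs. In CD103+CD11b- DCs it was 10.9, 16.2 and 20.0 CPM in control and 32.6, 17.3 and 22.7 CPM in cKO mice, and these overlapped. Ms4a1 of cKO mice was also 2.15 higher (log2, SE 0.43) in CD103-CD11b+ than in CD103+CD11b- DCs, whereas in control mice the subsets overlapped, with a log2 difference of -0.44 (SE 0.46, adjusted p = 0.552).

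The remaining 9 genes overlapped between cKO and control in CD103-CD11b+ DCs. Their log2 differences ranged from -1.37 (SE 1.10) for Ms4a8a to 0.85 (SE 0.79) for Ms4a4b, both low in counts. With 1 library left out, that of Ms4a8a ran from -3.72 (without cKO CD103-CD11b+ replicate 2) to -0.33 (without control CD103-CD11b+ replicate 2), and that of Ms4a4b from 0.25 (without cKO CD103-CD11b+ replicate 1) to 1.60 (without control CD103-CD11b+ replicate 2). Those of the well-counted genes were small, at 0.21 (SE 0.22) for Ms4a6b, 0.25 (SE 0.21) for Ms4a6c, 0.21 (SE 0.35) for Ms4a4c and 0.41 (SE 0.38) for Ms4a6d. The 95% interval of the difference ran from -0.28 to 0.70 for Ms4a6b and from -0.22 to 0.71 for Ms4a6c. The interval of Ms4a8a was wider, from -3.80 to 1.06. Of the 12 macrophage genes 1 was called higher in this comparison (Adgre1, at 29.7 to 76.0 CPM in control and 140 to 237 CPM in cKO mice), beside the 1.11% of all genes tested.

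The difference of the Cbfb effect between the subsets (the effect in CD103-CD11b+ minus that in CD103+CD11b- DCs) was 2.58 (SE 0.63) for Ms4a1, 1.29 (SE 0.30) for Ms4a6c and 1.12 (SE 0.32) for Ms4a6b on the log2 scale. None of the 10 genes was called by edgeR's quasi-likelihood test, where 0.651% of all genes tested were called, and 3 had an unadjusted p under 0.05, beside 11.1% of all genes. DESeq2 and the likelihood ratio test each called 2 (Ms4a1 and Ms4a6c), beside 2.47% and 2.01% of all genes. The fit with the replicate block called Ms4a6b and Ms4a6c, and as its share of all genes is not given, nothing is read from these calls. As this difference holds the comparison in which Ms4a1 was known to rise, it is given as a description.

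Among the 9 Ms4a genes not listed, Ms4a14 was the one tested, with 56 counts in 12 libraries. It had 0, 9 and 5 counts in control and 16, 22 and 0 counts in cKO CD103-CD11b+ DCs, and 0 and 4 counts in all in control and cKO CD103+CD11b- DCs. The groups overlapped, and it passed no test. Ms4a15 had 8 counts, Ms4a18 5, and Ms4a3 and Ms4a10 1 count each in all libraries together. Ms4a2, the IgE receptor chain, and Ms4a5, Ms4a12 and Ms4a13 had 0 counts in every library.

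Tmem176a and Tmem176b, which code for membrane proteins of a similar fold outside the cluster, showed the same direction as the Ms4a6 genes between subsets. Both were higher in CD103-CD11b+ DCs, Tmem176a by 2.98 (SE 0.46, adjusted p = 0.00224) in control and 3.38 (SE 0.47, adjusted p = 0.00068) in cKO mice, and Tmem176b by 2.93 (SE 0.50, adjusted p = 0.00358) and 3.52 (SE 0.51, adjusted p = 0.000892). Their summed level was 12.5 to 60.3 CPM in CD103+CD11b- and 262 to 430 CPM in CD103-CD11b+ DCs, and neither passed the test between genotypes.

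Of 7 genes for reported partners of MS4A proteins, 5 were tested, and Vsig4 and Fcer1a were at or near 0. Trem2 passed the filter on low counts through cKO CD103-CD11b+ libraries alone. In control mice 2 of the other 4 were higher in CD103-CD11b+ DCs (Clec7a and Fcer1g), and in cKO mice 3 (these and Tnfrsf18), beside the 11.8% and 9.32% of all genes tested. Clec7a, the beta-glucan receptor dectin-1, was 75 to 83.1 CPM in control CD103+CD11b- and 160 to 185 CPM in control CD103-CD11b+ DCs, a log2 difference of 1.16 (SE 0.30, adjusted p = 0.0243). Fcer1g, the signalling chain shared by several Fc receptors, was 14.1 to 35.2 and 57.6 to 64.4 CPM, a log2 difference of 1.28 (SE 0.32, adjusted p = 0.0198). Trem2, a lipid-sensing receptor of macrophages, was at or under 0.342 CPM in every control library and at 2.02, 4.52 and 1.02 CPM in cKO CD103-CD11b+ DCs, and no call is read from it. None of the partners passed the test between genotypes in either subset.

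Apart from Ms4a1, the genes most like the members over the 12 libraries were Lilra5 for Ms4a4a (r = 0.99), Tspan32 for Ms4a4b (r = 0.89), Tmem273 for Ms4a4c (r = 0.99), Col6a2 for Ms4a4d, Nlrc4 for Ms4a6b (r = 0.99), Pira2 for Ms4a6c (r = 0.99), Gbp7 for Ms4a6d (r = 0.98), Cx3cr1 for Ms4a7 (r = 0.93) and Gm20712 for Ms4a8a (r = 0.92). The next in order were Gm19972 and Fam53b for Ms4a4a, Olfr56 and Ikzf3 for Ms4a4b, Rin2 and Ptpro for Ms4a4c, the matrix genes Tnc and Vcan for Ms4a4d, Ston2 and St18 for Ms4a6b, Limd2 and Ctsa for Ms4a6c, Itgam and C1qb for Ms4a6d, Tsku and Acvr2a for Ms4a7, and Sema3c and Fcrls for Ms4a8a. Nlrc4, an inflammasome receptor gene, was 7.44 to 14.7 CPM in control and 4.22 to 5.48 CPM in cKO CD103+CD11b- DCs, and 23.7 to 40.9 CPM in control and 49.0 to 54.5 CPM in cKO CD103-CD11b+ DCs. These correlations are over libraries that differ by subset, and are given as a description.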

How the data were processed

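RNA-seq libraries were made by the authors with a RamDA-seq protocol from small pools of sorted DCs, 3 samples in each of 4 groups. Reads were trimmed with Trim Galore, mapped with STAR 2.7 and filtered by the authors for low mapping quality and for duplicates. The deposited values are raw counts per gene from htseq-count, run without strand on an Ensembl annotation of GRCm38. Between 61.2% and 67.3% of the reads in each file lay on the summary lines of the counter and named no gene. These lines were left out.

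The members and lists were chosen with earlier results of these data known, and 1 gene of the B cell list is not reported here. Symbols, positions, exon lengths and transcripts were taken from GENCODE M21 (GRCm38), which matched 53706 of 53801 gene IDs (99.8%). The 20580 genes that reached 5 counts in any of the 12 samples entered 1 fit with a mean for each of the 4 groups. TMM scaling and edgeR's quasi-likelihood test (version 4.0.16, with limma 3.58.1 under R 4.3.3) were used, and p-values were adjusted by Benjamini-Hochberg over all of these genes, with a limit of 0.05. The SE was derived from the fold change and F, and 95% intervals of log2 differences from the SE and the degrees of freedom of the test. Log2 CPM used a prior count of 2. The text names all listed genes, other Ms4a genes and neighbours in the cluster, the genes of the lists, and for each listed gene the 3 with the highest Pearson r of log2 CPM over the 12 samples among genes with a mean of 1 CPM or more. The procedure was tested on simulated counts.

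Same-numbered samples deviated together (r over 0.1 in each pair) between the subsets of cKO mice alone (r = 0.112, 0.321 and 0.354), so the blocked values are given beside that comparison. Samples with unlike numbers were not compared, and the labels do not give the pairing. Between subsets and for the difference of effects the block was the replicate number within each genotype. Between genotypes it was the replicate number over all samples. Alternatives were other filters on low counts, RLE scaling, DESeq2 1.42.0, edgeR's likelihood ratio test, the replicate block, the 6 samples of a comparison alone, and leaving out each library. The exact intervals of count ratios and the floors cover counting error only. Sequences were aligned with Biopython 1.88.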

Additional observations from a re-analysis of the deposited data

How the results depend on the processing

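In CD103-CD11b+ DCs the number of listed genes called between cKO and control was 1 (Ms4a1, higher), where 1.11% of all genes tested were called higher. It was 1 under every alternative but the fit of the 6 samples of that comparison alone. That fit called 0, with a log2 difference of 3.75 for Ms4a1. As Ms4a1 was known to rise here when it was chosen, nothing is read from this count or from its stability. In CD103+CD11b- DCs the number of genes called between cKO and control was 0 as reported, 1 (Ms4a6c, lower) with 5 or more counts in every sample, with at least 1 count in any sample and with the replicate block, and 2 with DESeq2 and with edgeR's likelihood ratio test. It was 0 to 1 without 1 library, the 1 being Ms4a6c without control CD103+CD11b- replicate 3 or cKO CD103-CD11b+ replicate 3. Between subsets it was 5 in control mice, 3 with 5 or more counts in every sample, a filter that Ms4a4a and Ms4a4c did not pass, 4 (Ms4a6c lost) with filterByExpr and with at least 1 count in any sample, 6 with DESeq2 (Ms4a4d added) and with the likelihood ratio test (Ms4a8a added), 7 with the replicate block (both added), and 4 to 5 without 1 library. The fit of the 6 control samples alone lost Ms4a6c and added Ms4a8a. In cKO mice it was 6, and 8 (Ms4a4d and Ms4a7 added) with filterByExpr, at least 1 count in any sample, DESeq2, the likelihood ratio test and the replicate block, 4 with 5 or more counts in every sample, and 6 to 8 without 1 library. These counts include Ms4a4a where it was tested, and in cKO mice Ms4a1, from which nothing is read. The share of all genes called under an alternative is given above for DESeq2 and the likelihood ratio test alone. It is given only in CD103+CD11b- DCs and for the difference of effects. Elsewhere an added call cannot be told from a setting that called more genes of any kind. The difference of the Cbfb effects had 0 genes called, 2 with DESeq2 and with the likelihood ratio test (Ms4a1 and Ms4a6c), 2 with the replicate block (Ms4a6b and Ms4a6c), and 0 in all fits without 1 library. In control mice Ms4a8a was called between subsets without cKO CD103-CD11b+ replicate 1 or 2. In cKO mice Ms4a7 was called between subsets without control CD103-CD11b+ replicate 2, cKO CD103+CD11b- replicate 2 or cKO CD103-CD11b+ replicate 3, and its log2 difference ran from 2.40 to 5.82. That of Ms4a4d ran from 2.31 to 4.78, and it was called without control CD103+CD11b- replicate 3, control CD103-CD11b+ replicate 1, cKO CD103+CD11b- replicate 2 or cKO CD103-CD11b+ replicate 3. Where not said, the cause was not tested.

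The replicate block gave 1 call in CD103-CD11b+ and 1 in CD103+CD11b- DCs between genotypes, 7 and 8 between subsets and 2 for the difference of effects. In all comparisons, that of subsets in cKO mice included, the labels give the paired samples only a shared number.

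With 1 library left out, log2 differences of low or overlapping genes changed sign. Between genotypes in CD103-CD11b+ DCs they ran from -0.23 to 0.88 for Ms4a4a and from -0.71 to 0.71 for Ms4a4d. In CD103+CD11b- DCs they ran from -1.73 to 2.7 for Ms4a4a, -0.44 to 0.96 for Ms4a4b, -2.00 to 0.68 for Ms4a4d, -0.18 to 0.92 for Ms4a6d, -3.23 to 0.18 for Ms4a7 and -0.072 to 2.07 for Ms4a8a. Between subsets of cKO mice Ms4a8a ran from -1.43 to 2.62. The difference of effects ran from -2.45 to 1.96 for Ms4a4a, -0.15 to 1.29 for Ms4a4b, -0.41 to 2.24 for Ms4a4d and -0.51 to 0.59 for Ms4a6d, which was 0.023 with the replicate block. None of these was called as reported.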

Other observations

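Gm8369, a protein-coding gene without an Ms4a symbol that lies inside the cluster between Ms4a6c and Ms4a6b, was 5.87, 6.66 and 2.33 CPM in control and 24.3, 8.33 and 3.06 CPM in cKO CD103-CD11b+ DCs. In CD103+CD11b- DCs it was 2.05, 1.14 and 2.91 CPM in control and 0.666, 0.732 and 0.391 CPM in cKO mice. By edgeR's quasi-likelihood test it was higher in CD103-CD11b+ than in CD103+CD11b- DCs of cKO mice (log2 difference 4.23, SE 0.80, adjusted p = 0.00438), and did not pass the test in control mice (1.25, SE 0.69, adjusted p = 0.226) or between genotypes. The other protein-coding genes inside the cluster, 1700017D01Rik and 1700025F22Rik, had no count in any library. Of the genes next to the cluster, Ccdc86, at group means of 58.2 to 72.7 CPM, passed the test in no comparison, and Ptgdr2, the prostaglandin D2 receptor gene, and Oosp1 had group means under 4 CPM and passed no test. Zp1, Oosp2 and Oosp3 were not tested for want of counts.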
